A study of Mus musculus with 5 samples.

Results

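The genes described here are 4 members of the S100 family, S100a4, S100a6, S100a10 and S100a11, together with Anxa2, which encodes annexin A2, the binding partner of the S100A10 protein. They were followed through the sub-cluster signatures of group 2 innate lymphoid cells (ILC2s), and they make up 5 of the 688 genes that occur in any of those signatures. The 5 genes were chosen from these same lists, so where they are listed is given as a description with no test. ILC2s are tissue-resident lymphocytes without rearranged antigen receptors that release type 2 cytokines such as IL-5 and IL-13.

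Male wild-type C57BL/6 mice aged 6 weeks gave ILC2s of 5 tissues, the lung, the pancreas, the small intestine (SI), the large intestine (LI) and the bone marrow (BM), and single-cell RNA-seq was performed on 1 library for each tissue. Cells of 10 mice were pooled in each of the preparation batches A (LI, lung and SI) and B (BM and pancreas), so the data hold no replicate. BM, LI, lung and pancreas cells were gated as lineage-negative ST2+CD25+, SI cells as lineage-negative CD45+KLRG1+ with reduced Thy1, and the lineage markers removed in all 5 sorts were CD3, B220, CD11b, CD11c and FceRI. BM was flushed, whereas collagenase was used for 30 min on pancreas, 60 min on lung and 90 min on both intestines.

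The authors divided each tissue into sub-clusters, 8 in BM, 8 in LI, 6 in lung, 7 in pancreas and 7 in SI. For each of the 36 sub-clusters they deposited the symbols of genes higher than in all other sub-clusters of the tissue together, and for each of the 113 pairs of sub-clusters the genes higher in one than in the other, in both directions (226 lists, called 1 versus 1). A sub-cluster is written here as its tissue and number, such as BM 3, and "BM 3 over 0" is the list of genes higher in BM 3 than in BM 0. The lists give symbols alone, with no expression level, fold change, p-value or number of cells, so the depth behind a listing is unknown, and neither the size of a difference nor an error can be given. Genes not listed for a pair cannot be called equal, since the threshold and the cells behind each comparison are not given in the sources used here. Lists of 1 sub-cluster against several others share that sub-cluster's cells and are not independent of each other. No list holds a member in both directions of a pair.

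S100 proteins are small proteins with EF-hand motifs that work as dimers, most of which change shape on binding calcium and then dock onto target proteins. S100A10 is the exception, since its calcium sites are inactive and it stays in a form that binds annexin A2. Annexins bind acidic phospholipids of membranes in the presence of calcium, and annexin A2 with S100A10 links membranes to the cortical actin cytoskeleton. S100a4 and S100a6 are expressed in many motile and activated lymphocytes.

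The 4 S100 genes lie on the plus strand of mouse chromosome 3 (GRCm38/mm10, GENCODE M21), in 2 neighbouring pairs. S100a4 (chr3:90603771-90606045) ends 6836 bases before S100a6 (chr3:90612882-90624181), and S100a5, which is in no list, lies between them. S100a11 (chr3:93520488-93526287) ends 28792 bases before S100a10 (chr3:93555080-93564643), and 2896306 bases separate S100a6 from S100a11. Anxa2 lies on the plus strand of chromosome 9 (chr9:69453620-69491795). S100a4 overlaps the annotated gene Gm42674, Anxa2 overlaps Gm16144 and Mir3109, and a pseudogene, S100a11-ps, carries the name of S100a11, so reads of these 3 members could in part be shared with those annotations.

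The stretches of 120 bases that end just before the first annotated base of each gene are printed because the members are listed together in several sub-clusters, to show the promoters side by side. They are RefSeq sequence of GRCm38.p6, plus strand, at chr3:90603650-90603769 for S100a4, chr3:90612762-90612881 for S100a6, chr3:93520368-93520487 for S100a11 and chr9:69453500-69453619 for Anxa2. Capitals mark matches on either strand to a TATA box (TATAAA), an AP-1 site (TGANTCA) or a GC box (GGGCGG), and no match overlapped another.
S100a4: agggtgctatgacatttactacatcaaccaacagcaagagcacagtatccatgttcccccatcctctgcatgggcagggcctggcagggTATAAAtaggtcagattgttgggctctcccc
S100a6: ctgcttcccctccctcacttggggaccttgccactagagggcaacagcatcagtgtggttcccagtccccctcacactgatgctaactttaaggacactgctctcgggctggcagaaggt
S100a11: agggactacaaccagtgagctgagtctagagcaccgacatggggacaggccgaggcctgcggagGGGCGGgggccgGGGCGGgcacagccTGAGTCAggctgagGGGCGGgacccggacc
Anxa2: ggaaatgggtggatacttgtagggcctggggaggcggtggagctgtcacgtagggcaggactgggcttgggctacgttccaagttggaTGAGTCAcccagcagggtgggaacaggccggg
The promoters of the neighbours S100a4 and S100a6 had no motif in common. In the full promoter window, 250 bases before to 50 after the RefSeq start, S100a4 had 1 TATA box and neither of the other motifs, and S100a6 had none of the 3. S100a11 had 2 AP-1 sites and 3 GC boxes, and Anxa2 had 1 AP-1 site, 1 TATA box and 3 GC boxes. Among 32851 promoter windows of the same length, 13.6% held TATAAA, 7.81% held TGANTCA and 35.7% held GGGCGG. A match is a run of letters and was not tested as a binding site.

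The members entered the lists of 4 tissues and none of SI. In the 36 lists against all others they made 18 entries, spread over 8 lists, and 1 versus 1 they made 99 entries in 47 of the 226 lists. All 685 genes listed 1 versus 1 together made 5665 such entries. The members were picked from these lists, so nothing is read from these counts. Pancreas lists held 5 members, LI and lung lists 4 each and BM lists 2, beside 19.8%, 67.7%, 27.8% and 21.2% of the 688 genes being in a list of pancreas, LI, lung and BM. In SI no member was listed, although 49.1% of the 688 genes were, none of its 42 1 versus 1 lists was empty, and they hold 1468 entries. Lists within a tissue give no level to set beside another tissue. A gene expressed alike in all sub-clusters of a tissue would be in no list.

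**Figure D1:**
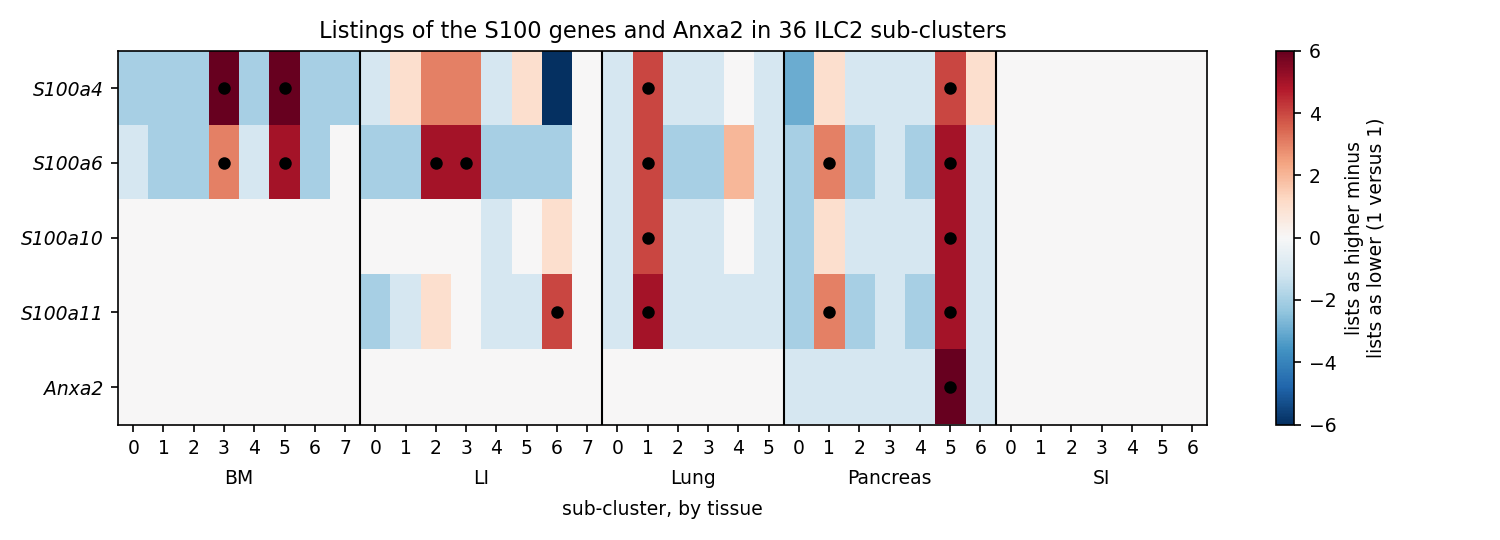
For each gene (rows) and each of the 36 sub-clusters (columns, by tissue), the colour gives the number of 1 versus 1 lists in which the gene was higher in that sub-cluster minus the number in which it was lower; dots mark listing against all other sub-clusters together. The darkest red squares are S100a4 in BM 3 and BM 5 and Anxa2 in Pancreas 5 (6 lists each), the darkest blue is S100a4 in LI 6 (lower in 6), and SI is blank.

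S100a6, whose product binds calcyclin-binding protein, was the most widely listed member. Its 7 lists against all were those of BM 3, BM 5, LI 2, LI 3, Lung 1, Pancreas 1 and Pancreas 5, in 4 tissues. Of the 688 genes, 308 were in any list against all, and 1.45% (10 genes) were so listed in 4 or more tissues. The 7 lists of S100a6 hold 1.16% of the 688 genes in BM 3, 2.18% in BM 5, 0.291% in LI 2 and 1.31% in LI 3. They hold 1.74% in Lung 1, 1.89% in Pancreas 1 and 2.91% in Pancreas 5. Because the genes were picked from them, nothing is read from these shares. S100a6 was the first of 2 genes in the LI 2 list and the second of 12 in the Lung 1 list.

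1 versus 1, S100a6 was in 32 lists, 28.3% of the 113 pairs of sub-clusters. In LI it was higher in LI 2 and in LI 3 than in LI 0, 1, 4, 5 and 6, so both sub-clusters were set over the same 5 others and were not separated from each other. In pancreas it was higher in Pancreas 5 than in Pancreas 0, 2, 3, 4 and 6, and higher in Pancreas 1 than in Pancreas 0, 2 and 4. In lung, Lung 1 was higher than Lung 0, 2, 3 and 5, and Lung 4 was higher than Lung 2 and 3. BM 5 was higher than BM 0, 1, 2, 4 and 6, and BM 3 was higher than BM 1, 2 and 6. In each of these 4 tissues S100a6 was thus listed as higher in 2 sub-clusters alone, and no list separated those 2 from each other. This does not rank them above every other sub-cluster. Lung 4, which does not list S100a6 against all, was not separated from Lung 0 or Lung 5 either, and BM 7 and LI 7 were in no S100a6 list.

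S100a4, whose product binds nonmuscle myosin IIA and is linked to cell motility, was listed against all in BM 3, BM 5, Lung 1 and Pancreas 5, 4 lists in 3 tissues. It was second of 8 genes in BM 3 and ninth of 15 in BM 5. 1 versus 1 it was in 32 lists as well, of which 12 were from BM, 10 from LI, 4 from lung and 6 from pancreas. BM 3 and BM 5 were each higher than BM 0, 1, 2, 4, 6 and 7, and no list separated the pair, so in BM the gene divided the 8 sub-clusters into 2 that were higher and 6 that were lower. Among the 6 BM 3 lists S100a4 was at place 2 or 3 of 4 to 14 genes. What the order within a list means is not stated in the sources used here.

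Lung 1 was higher in S100a4 than Lung 0, 2, 3 and 5, and Lung 4 was in no S100a4 list. Pancreas 5 was higher than Pancreas 0, 2, 3 and 4, and Pancreas 1 and Pancreas 6 were each higher than Pancreas 0 alone. Pancreas 6 is the sub-cluster that lists 10 of 11 pancreatic acinar markers against all, and its S100a4 entry was at place 22 of 23 genes.

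In LI, S100a4 was in no list against all and yet in 10 of the 1 versus 1 lists, which formed 3 levels. LI 2 and LI 3 were higher than LI 0, 4 and 6, and LI 0 and LI 4 were in turn higher than LI 6. LI 1 and LI 5 were also higher than LI 6 and were not separated from LI 0, 2, 3 or 4. LI 6 was therefore lower than 6 of the 7 other LI sub-clusters, and S100a4 was the first of 28 genes in LI 3 over 6 and the second of 53 in LI 2 over 6. It stood at place 14 of 54 in LI 1 over 6 and at place 70 of 106 in LI 0 over 6.

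S100a11, whose product binds annexin A1, had a different place in LI. It was listed against all in LI 6, at place 47 of 50 genes in a list that holds 7.27% of the 688 genes, and also in Lung 1, Pancreas 1 and Pancreas 5. 1 versus 1, LI 6 was higher in S100a11 than LI 0, 1, 4 and 5, and LI 2 was higher than LI 0. The same 4 pairs that list S100a11 as higher in LI 6 list S100a4 as lower in LI 6. S100a6 was higher in LI 2 and LI 3 than in LI 6, so the 3 genes did not follow 1 order in this tissue. LI 7 was in no list of any member, in either direction. Lists of genes lower in LI 7 were short, with 3 of 7 empty and the longest holding 11 genes, whereas the lists of genes higher in LI 7 held 36 to 147.

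**Figure D2:**
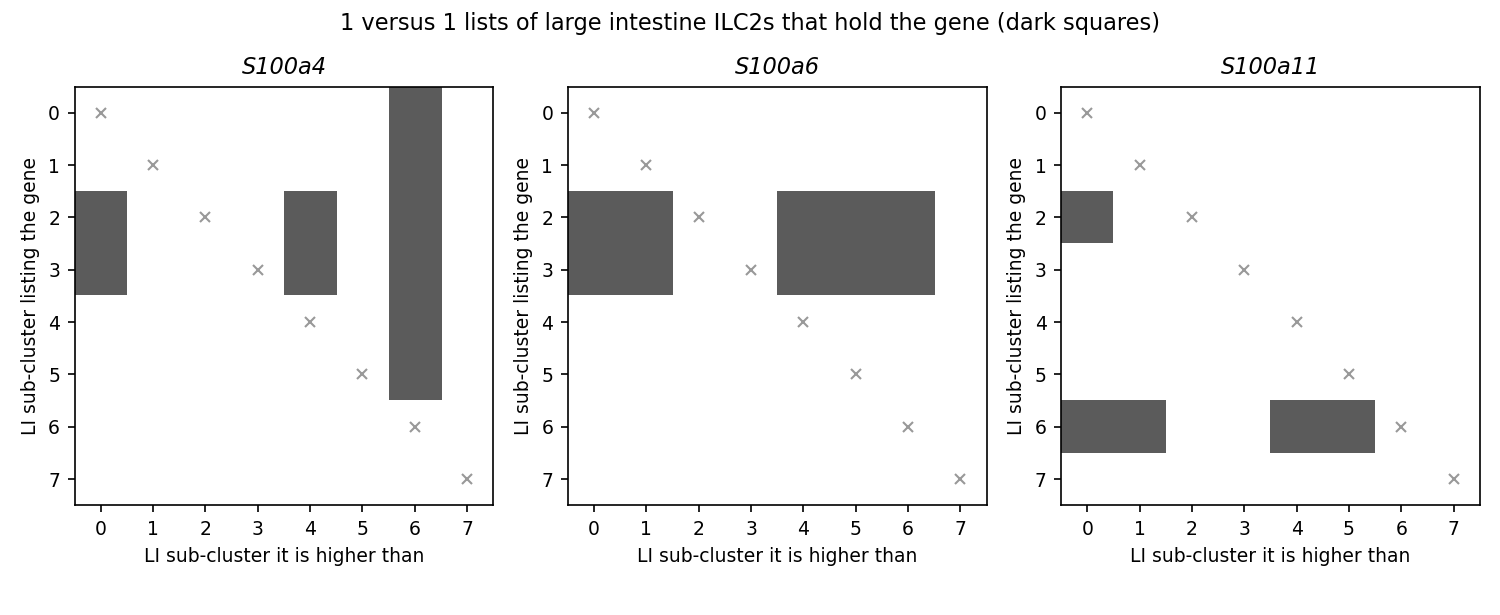
A dark square marks a large intestine 1 versus 1 list that holds the gene, with the sub-cluster in which it was higher on the vertical axis and the one in which it was lower on the horizontal axis; crosses mark the diagonal. S100a4 fills the column of LI 6 from 0 to 5, S100a6 fills the rows of LI 2 and LI 3 at 5 columns each, and S100a11 fills 4 squares in the row of LI 6.

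Outside LI, S100a11 was listed in lung and pancreas. Lung 1 was higher than each of the 5 other lung sub-clusters, the only complete set among the 4 S100 genes. Pancreas 5 was higher than Pancreas 0, 2, 3, 4 and 6, and Pancreas 1 was higher than Pancreas 0, 2 and 4, the same 3 sub-clusters as for S100a6. In all, S100a11 was in 18 of the 1 versus 1 lists, 15.9% of the pairs, with none from BM or SI.

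S100a10, the calcium-insensitive partner of annexin A2, was listed against all in Lung 1 and Pancreas 5. 1 versus 1 it was in 11 lists, 9.73% of the pairs. Lung 1 was higher than Lung 0, 2, 3 and 5, Pancreas 5 was higher than Pancreas 0, 2, 3, 4 and 6, Pancreas 1 was higher than Pancreas 0 and LI 6 was higher than LI 4. All 11 of these lists also held S100a11, which is 61.1% of the S100a11 lists. This was not particular to the pair. Lgals1, encoding galectin-1 and in 44 lists 1 versus 1, was in all 18 S100a11 lists and so in these 11 too.

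Anxa2 was confined to pancreas in the lists examined. It was listed against all in Pancreas 5, at place 3 of 20 genes, and 1 versus 1 in 6 lists (5.31% of the pairs), all of them Pancreas 5 over another pancreas sub-cluster, so that each of the 6 others was lower. In Pancreas 5 over 6 it was the first of 13 genes. Pancreas 5 over 1 held 17 genes, with Anxa2 at place 6 and none of the 4 S100 genes. Pancreas 1 and Pancreas 5 were thus separated by Anxa2 and by no S100 gene, although S100a6 and S100a11 are in the lists of both against all. Of the 6 Anxa2 lists, 5 held S100a10 (83.3%), and these were 45.5% of the 11 S100a10 lists. The other S100a10 lists were the 4 of Lung 1, 1 of Pancreas 1 and 1 of LI 6, and none of them held Anxa2.

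The members met most often in Pancreas 5 and Lung 1. The lists of Pancreas 5 over 0, 2, 3 and 4 each held all 5 members, among 33, 32, 18 and 24 genes, and Pancreas 5 over 6 held all but S100a4 among 13. The lists of Lung 1 over 0, 2, 3 and 5 held the 4 S100 genes among 12, 21, 18 and 11 genes. Lung 1 over 4 held S100a11 alone, at place 34 of 37. Of the 47 1 versus 1 lists with a member, 20 held 1 member, 16 held 2, 1 held 3, 6 held 4 and 4 held 5.

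**Figure D3:**
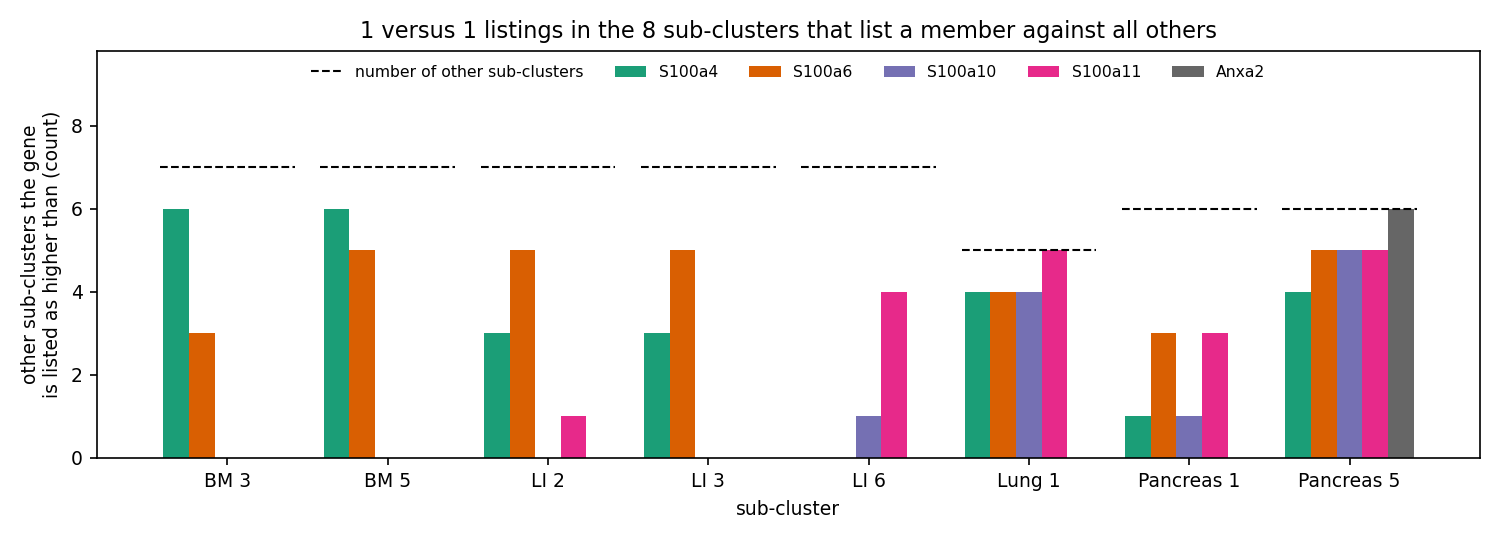
For the 8 sub-clusters that list a member against all others, bars give the number of other sub-clusters of the tissue over which each gene was listed 1 versus 1, and dashed lines the number of other sub-clusters there are. Bars reach the dashed line for S100a11 in Lung 1 (5 of 5) and Anxa2 in Pancreas 5 (6 of 6); BM 3 and BM 5 carry S100a4 and S100a6 bars alone.

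S100a4 and S100a6 were the pair that shared most lists. They were in 23 of the same 1 versus 1 lists, 71.9% of each gene's 32, and every list against all with S100a4 also held S100a6 (4 lists, 57.1% of the 7 with S100a6). S100a11 shared 13 lists with S100a6, which is 72.2% of the S100a11 lists and 40.6% of the S100a6 lists. S100a4 and S100a11 shared 10 lists, 55.6% of the S100a11 lists and 31.2% of the S100a4 lists, and were listed in opposite directions in 4 further pairs, all in LI. S100a4 and S100a10 were listed in opposite directions in 1 pair, LI 4 and LI 6.

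Genes with the most similar 1 versus 1 lists were sought for each member by the Jaccard index, the lists shared by 2 genes as a fraction of the lists that hold either, over 392 genes in at least 5 lists. For S100a6 these were Lgals1, encoding the lectin galectin-1 (0.583, 28 shared lists), S100a4 (0.561) and the intermediate filament gene Vim (0.548). For S100a4 they were S100a6, Vim (0.477, 21 shared lists) and Crip1, a LIM domain protein gene (0.476, 20 shared lists). S100a10 was most like Capg, an actin filament capping protein gene (0.667, 10 shared lists), then S100a11 (0.611) and Ahnak, a large scaffold protein gene whose product binds S100A10 with annexin A2 (0.417, 5 shared lists), with which Anxa2 tied (0.417, 5 shared lists). S100a11 was most like S100a10, Cd3g, the gamma chain of CD3 (0.476, 10 shared lists), and Vim (0.457, 16 shared lists). Anxa2 was most like Grap, an adaptor protein gene (0.857, 6 shared lists), Lgals3, encoding galectin-3 (0.833, 5 shared lists), and Fgl2, fibrinogen-like 2 (0.667, 6 shared lists). All genes compared share the same libraries and sub-clusters, and the indices are a description.

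**Figure D4:**
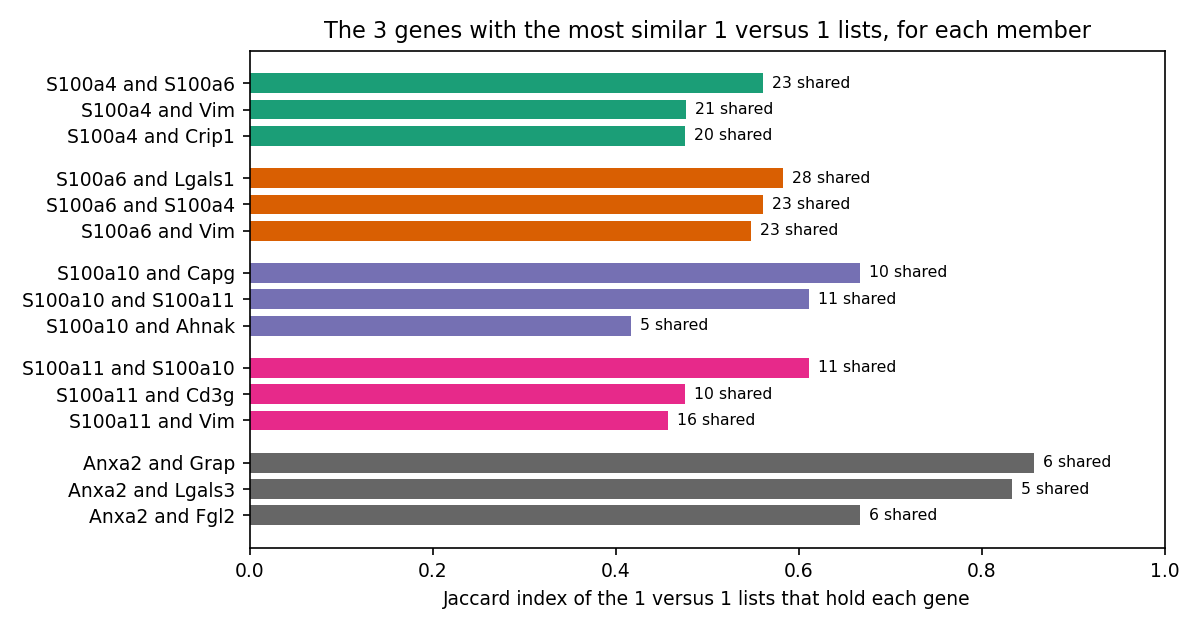
Bars give the Jaccard index (0 to 1) between the 1 versus 1 lists of each member and those of its 3 most similar genes, with the number of shared lists beside each bar. The index reached 0.857 for Anxa2 and Grap with 6 shared lists, and was 0.583 for S100a6 and Lgals1 with 28.

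The members include every S100 gene found in the lists, so by that choice the rest of the family was in none. Of its 16 genes, 4 were in any list, and 9 of the 13 on chromosome 3 were in none. Among those in none were S100a8 and S100a9, which are abundant in neutrophils. The genes tested are not given, so an unlisted gene may not have been detected, and nothing is read from these counts. Of 11 annexin genes, Anxa2 was in a list against all, and Anxa1 (Pancreas 5 over 0) and Anxa5 (Lung 1 over 3) were in 1 of the 1 versus 1 lists each. Among 9 genes for binding partners of the members, Ahnak was listed against all in Lung 1 and in 6 of the 1 versus 1 lists, which were Lung 1 over 2, 3 and 4, Pancreas 1 over 0 and Pancreas 5 over 0 and 2. Cacybp, for calcyclin-binding protein, was in SI 6 over 0, 2 and 3, where no member was listed.

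Of 23 calcium signalling genes, 2 were in any list. Itpr1, an intracellular calcium release channel, was higher in LI 6 than in LI 0, 1, 4 and 5, the same 4 sub-clusters as for S100a11, and Calm2, a calmodulin gene, was lower in LI 3 than in each of the 7 other LI sub-clusters. Those lists of genes lower in LI 3 held 67 to 171 genes each. Of 23 genes of the actin and intermediate filament cytoskeleton, 6 were listed against all and 11 1 versus 1. Vim was in 33 of the 1 versus 1 lists, Crip1 in 30, the beta-actin gene Actb in 26, Capg in 14 and the tropomyosin gene Tpm4 in 14. Actb and Tpm4 were listed against all only by sub-clusters without a member there, Actb by BM 4, Lung 5, Pancreas 4 and SI 5 and Tpm4 by LI 1. 1 versus 1, Actb went both ways in sub-clusters with a member. It was higher in Lung 1 than in Lung 0 and 3, and higher in Pancreas 1 and 5 than in Pancreas 2. It was lower in BM 3 and 5 than in BM 4, in Lung 1 than in Lung 5 and in Pancreas 1 and 5 than in Pancreas 4. Tpm4 was lower in LI 2, LI 3, LI 5 and LI 6 than in LI 1. Lmna, for lamin A/C, was listed against all in Pancreas 1. Tagln2, an actin-binding protein gene, was in 2 lists (Pancreas 1 over 0 and Pancreas 5 over 0), both of which also held 4 or 5 members, Actg1 was in 3 lists, none of a sub-cluster that lists a member against all, and Tmsb4x, Pfn1 and Msn were each in LI 6 over 0 alone. In SI, where no member was listed, SI 4 was over SI 2, 3 and 6 in Vim and over SI 0, 2, 3, 5 and 6 in Crip1. Of 10 TGF-beta signalling genes, 2 were in any list, Skil and Smad7. Skil was listed against all in Lung 2 and was in 14 of the 1 versus 1 lists. It was higher in Lung 2 and Lung 5 than in Lung 0, 1 and 4, in LI 0, 4, 6 and 7 than in LI 3, and in BM 4 than in BM 5. Its other lists were from SI. Smad7 was lower in Lung 4 than in each of the 5 other lung sub-clusters. The lists of genes lower in Lung 4 held 37 to 97 genes each, 325 entries in all, beside 52 entries as higher.

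The lists against all that hold a member began with different genes. BM 3 began with Lgals1, S100a4 and Stab2, a hyaluronan scavenger receptor gene, and BM 5 with the chemokine genes Ccl3 and Ccl6 and the basophil protease gene Mcpt8. LI 2 held S100a6 and Cd28, a T cell costimulatory receptor gene, alone. LI 3 began with the transcription factor gene Klf6, the activation marker gene Cd69 and Jun, and Pancreas 1 with Fosb, Rgcc and Klf6. LI 6 began with Tnfsf8, the CD30 ligand gene, Il17a and 1700061F12Rik, Pancreas 5 with Capg, Tnfsf8 and Anxa2, and Lung 1 with Lgals1, S100a6 and Crip1. Lgals1 was in 7 of these 8 lists, all but LI 2, Crip1 and Vim were in 4 each, and Actn2, an alpha-actinin gene, Cd3g and Tnfsf8 were in the 3 lists of LI 6, Lung 1 and Pancreas 5.

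Genes taken here as markers of other cell types stood beside the members in 5 of the 8 lists. Of 7 T cell markers, 2 were in any list. Cd3g was listed against all in LI 6, Lung 1 and Pancreas 5, and Cd28 in LI 2, whereas Cd3d, Cd3e, Cd8a, Cd4 and Trac were in no list, and cells with surface CD3 had been gated out. LI 6 also listed the ILC3 markers Il17a and Il17f (2 of 5), Pancreas 5 listed Ccl5 (1 of 6 NK cell and ILC1 markers), and BM 5 listed Mcpt8 (1 of 4 mast cell and basophil markers) with Tyrobp and Fcer1g (2 of 7 myeloid markers). BM 3, LI 3 and Pancreas 1 listed none of these markers against all. The hemoglobin gene Hba-a1, 1 of 4 erythroid markers in any list, was in BM 5 over 0, 1 and 3 and in Pancreas 5 over 0 and 2. Without the 4 sub-clusters that list a T cell marker, S100a4 was listed against all in 2 sub-clusters, S100a6 in 4, S100a11 in 1, and S100a10 and Anxa2 in 0, in place of 4, 7, 4, 2 and 1. Whether these genes mark other cells, and what part such cells would have in the member listings, was not tested.

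Of the 10 ILC2 markers, 9 were in a 1 versus 1 list and Il1rl1, the ST2 gene, was in none. They went both ways in the sub-clusters that list a member. Lung 1 listed none of them as higher and 4 as lower, which were Rora, Areg and Icos (lower than in Lung 2) and Hs3st1 (lower than in Lung 2 and 3). This was not particular to Lung 1. Lung 2 was also higher than Lung 0 and 4 in Areg and Icos, than Lung 4 in Rora and than Lung 0 in Hs3st1. The list of Lung 2 over 1 held 53 genes. Pancreas 5 listed none as higher and 3 as lower, Hs3st1 against each of the 6 other pancreas sub-clusters and Areg and Icos against Pancreas 3. LI 3 listed none as higher and 8 as lower, among them Gata3 and Rora against LI 0, 1, 2, 4 and 7. Lists of genes lower in LI 3 were long for genes in general. They held 67 to 171 genes each and 784 entries in all, beside 108 entries as higher. LI 6 listed Il13 against all and over LI 0, 2, 3, 4 and 5, and Il5 over LI 3, whereas Il2ra, the CD25 gene, and Hs3st1 were lower in LI 6 than in LI 0, 1, 2 and 4, and Il5 and Icos lower than in LI 1. LI 2 listed 6 markers as higher and 2 as lower, with Il13 in both counts. Gata3 and Il13 were higher in LI 2 only against LI 3. Pancreas 1 listed 1 as higher and 2 as lower, with Hs3st1 in both counts. BM 3 and BM 5 each listed 1 as higher (Icos in BM 3, Klrg1 in BM 5) and 1 as lower. The part of these differences in the member listings was not tested. In these data a larger share of cells with a transcript and more transcript in each cell cannot be told apart.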

How the data were processed

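For each tissue the authors deposited 1 table of gene symbols, in columns named for a sub-cluster and what it was set against, with no numerical unit. The authors aligned and counted reads with Cell Ranger on mm10 and clustered cells with Seurat in R 3.6.1. The submitters' processing notes name Seurat version 2, and the methods name version 3 as well. Clusters with markers of other cell types were removed, but the sources used here do not state whether the sub-clusters of the tables were drawn before or after that step, nor how doublets were treated. The threshold behind these sub-cluster lists is not stated in the sources used here.

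All 262 columns were read with Python 3.11.15 (36 lists against all and 226 lists 1 versus 1). Symbols were matched exactly after removal of spaces, and a column holding NA was read as an empty list. The members and the gene lists were chosen with earlier results of these data known. Genes named are the members, S100 and annexin genes in any list, genes of the other fixed lists that a sub-cluster listing a member also lists, the 3 genes most like each member (Jaccard index over 1 versus 1 lists, genes in at least 5, ties by symbol) and the first 3 genes of each list against all with a member. Cacybp, Actn2, Actg1, Tpm4, S100a5, S100a8, S100a9, Il1rl1 and the unlisted T cell markers fall outside this rule and were named after the lists were seen. The likeness ranking was tested on simulated lists. The reading of the columns and the counts of higher and lower listings were not tested in that way. With 1 library per tissue there was no test, and each comparison of sub-clusters lies within 1 library, so batch does not enter it. Where counts of tissues are set side by side, each pair of tissues also differed in at least 1 of batch, sort gate and collagenase time. Tissue cannot be told apart from what differed. LI and SI shared batch and collagenase time but not the gate, and LI and lung shared batch and gate but not the collagenase time.

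Positions came from GENCODE M21 and promoters from RefSeq (GRCm38.p6), in which 4 of the 5 members were matched; S100a10 was not. Protein sequences were not used here. Alternatives asked a member to be in every, at least 50% or at least 1 of a sub-cluster's 1 versus 1 lists, left out sub-clusters with markers of other cell types among their first 3 genes, left out 1 tissue at a time for likeness, and matched symbols through synonyms.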

Additional observations from a re-analysis of the deposited data

How the results depend on the processing

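Of 72 alternative values, 46 were within 1.5 times of the main value and 26 moved further. When a sub-cluster had to list a gene in every 1 versus 1 list, in place of the list against all, the number of sub-clusters was 0 for S100a4, 0 for S100a6, 0 for S100a10 and 1 for S100a11, 0 listed S100a4 with S100a6, 0 listed 2 or more members, and the 18 entries became 2 (S100a11 in Lung 1 and Anxa2 in Pancreas 5). With at least 1 such list, the numbers were 12 for S100a4 (main 4), 4 for S100a10 (main 2), 7 for S100a4 with S100a6 (main 4) and 8 for 2 or more members (main 5), with 30 entries. With at least 50% of them, counts changed by less than 1.5 times (6 for S100a6, 3 for S100a4 with S100a6, 4 for 2 or more members and 17 entries). Another alternative left out of the 1 versus 1 lists the sub-clusters with another cell type's marker among their first 3 genes. These were BM 2, BM 5, LI 2, LI 6, Pancreas 6 and SI 4. That alternative took S100a4 to 16 of 32 listings, S100a6 to 19 of 32 and all members to 61 of 99. LI 2 was left out for Cd28 alone, which follows S100a6 in its list of 2 genes. 1 versus 1, LI 2 listed 6 of 10 ILC2 markers as higher and 2 as lower, with Il13 in both counts. Gata3 and Il13 were higher in LI 2 only against LI 3, where lists of lower genes were long (784 entries). Whether LI 2 holds other cells was not tested. Chosen after seeing the data, an alternative without the 4 sub-clusters that list a T cell marker left 2 sub-clusters for S100a4, 4 for S100a6, 0 for S100a10, 1 for S100a11 and 0 for Anxa2, 7 entries in all. Of the 3 most similar genes, 1 remained for S100a10 over lists against all or without lung, and 1 for S100a11 over lists against all, without LI or without lung. Likeness of Anxa2 without pancreas could not be computed, since no list was left. Matching through synonyms gave 117 entries either way. The likeness of protein sequences was not run. No paired analysis was possible because each tissue had 1 library. With no counts in the tables, depth sets a limit that cannot be stated.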
